A study of Mus musculus with 6 samples.

Results

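Idh2 and Nnt, which encode mitochondrial enzymes that make NADPH, are described here with 8 further enzymes that produce NADPH or supply its precursor, in gastrocnemius muscle of mice labelled as lacking thyroid hormone receptor alpha in muscle and of their littermates. The 10 genes are the rows of the deposited count table with these symbols, out of 74693 features listed, 17034 with values and 13118 tested. Of the 10, 6 act in mitochondria (Idh2, Nnt, Me2, Me3, Mthfd2 and Nadk2) and 4 in the cytosol (Idh1, G6pdx, Pgd and Aldh1l1). All 10 passed the filter on low counts. The list was selected on earlier results of this same comparison, in which Idh2 and Nnt already stood out. The genotype values below are therefore a description, and the calls lend no independent support to the choice.

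Each library came from the gastrocnemius of an 8-week-old male mouse kept on standard chow without any treatment. The 3 mice labelled TRa_mKO carried Thra fl/fl together with the transgene Tg(Myf5-cre)1Jme, from a line labelled B6.Cg, in which Cre acts from embryonic myogenesis onward, and the 3 WT littermates carried Thra fl/fl without Cre. Polyadenylated RNA of whole muscle was sequenced, so that fewer cells of a type and less RNA per cell cannot be told apart.

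NADPH carries the reducing power with which cells regenerate glutathione and thioredoxin and build fatty acids and sterols. It hardly crosses the inner mitochondrial membrane, so mitochondria and cytosol each keep enzymes of their own for it. In mitochondria, Idh2 makes NADPH while converting isocitrate to oxoglutarate, and Nnt uses the proton gradient to pass electrons from NADH to NADP. In the cytosol, the oxidative pentose phosphate pathway (G6pdx, Pgd), Idh1 and malic enzyme are the main sources.

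Library totals ran from 12390527 to 14488500 counts. Thra itself, in CPM (counts scaled to a common effective library size), ran from 78.8 to 96.8 in WT and from 101 to 129 in TRa_mKO (log2 fold change 0.37, adjusted p = 0.117 by edgeR). The targeted gene therefore showed no decrease under the TRa_mKO label. Every TRa_mKO library lay above every WT library in Thra, and some of its counts were fractional. Thrb, the gene of the other thyroid hormone receptor, was called lower, from 28.0 ± 2.70 CPM in WT to 14.7 ± 0.659 CPM (-0.93 on the log2 scale, adjusted p = 0.00125), without overlap. Some Thrb counts were fractional too. A gene-level count includes any exons that a floxed allele keeps, and every direction below rests on the labels of the libraries. All 7 skeletal muscle markers were present, with a summed level of 83424 to 109901 CPM in WT and 103683 to 119230 CPM in the libraries labelled TRa_mKO. Haemoglobin transcripts were highest in WT replicate 1 and TRa_mKO replicate 3 (1742 and 1599 CPM, against 453 to 907 CPM elsewhere).

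Of the 10 enzymes, 2 were called higher in the libraries labelled TRa_mKO (Idh2 and Nnt), 1 was called lower (Idh1), and 7 did not pass. A call means an adjusted p below 0.05 in edgeR's quasi-likelihood test with Benjamini-Hochberg adjustment over all 13118 genes. That rule called 4.17% of all genes tested, 2.52% upward and 1.65% downward. Scaled by library size only, the split over all genes was 213 higher and 255 lower in place of 331 and 216. The 3 calls among the enzymes also held under that scaling. Because earlier results of this contrast were known when the list was drawn up, nothing is read from these shares.

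**Figure D1:**
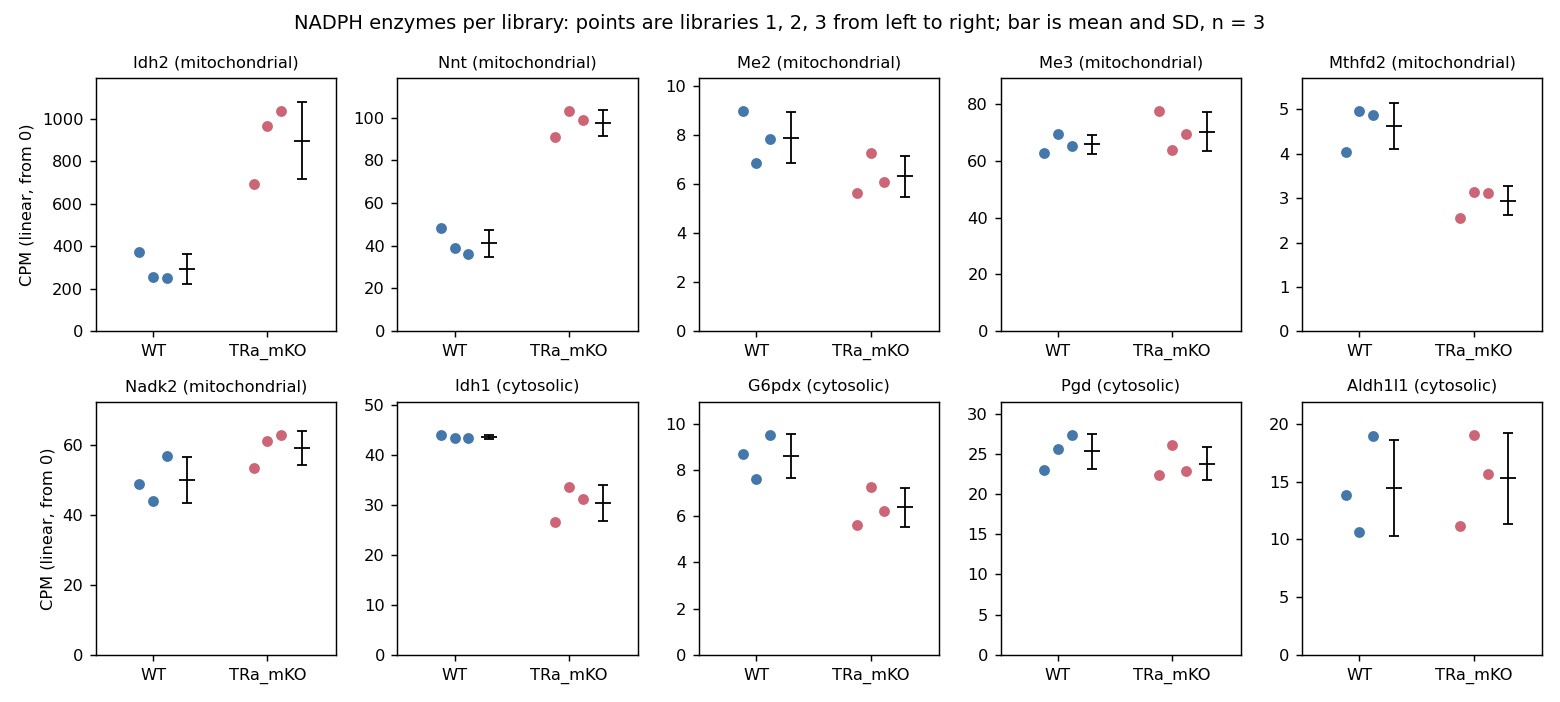
Level of each of the 10 NADPH enzymes in every library, in CPM on linear axes from 0, with WT in blue and the libraries labelled TRa_mKO in red; the bar beside each group is its mean and SD (n = 3). Idh2 and Nnt sit higher in every TRa_mKO library than in any WT library, Idh1, G6pdx and Mthfd2 sit lower, and the other 5 overlap.

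The NADP-dependent isocitrate dehydrogenases of the mitochondria and the cytosol went in opposite directions. Idh2 (gene ID 269951) was 3.06-fold higher in the libraries labelled TRa_mKO, and Idh1 (gene ID 15926) was 1.43-fold higher in WT. The promoter windows of these isoenzymes are shown for that reason, from RefSeq's GRCm38.p6 table. Each holds 250 bases before a transcript start and 50 after it, read 5′ to 3′ along the gene. The windows are chr7:80115301-80115600 on the minus strand for Idh2, and chr1:65186430-65186729 and chr1:65179093-65179392 on the minus strand for the 2 starts listed for Idh1. Capitals mark GC boxes (GGGCGG) and CCAAT boxes (CCAAT) on either strand.
Idh2: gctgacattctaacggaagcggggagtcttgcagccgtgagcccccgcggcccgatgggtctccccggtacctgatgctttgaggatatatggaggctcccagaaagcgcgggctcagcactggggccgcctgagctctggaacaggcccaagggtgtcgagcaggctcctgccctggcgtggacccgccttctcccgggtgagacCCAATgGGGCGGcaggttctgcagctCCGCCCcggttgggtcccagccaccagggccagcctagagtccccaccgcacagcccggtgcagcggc
Idh1 upstream start: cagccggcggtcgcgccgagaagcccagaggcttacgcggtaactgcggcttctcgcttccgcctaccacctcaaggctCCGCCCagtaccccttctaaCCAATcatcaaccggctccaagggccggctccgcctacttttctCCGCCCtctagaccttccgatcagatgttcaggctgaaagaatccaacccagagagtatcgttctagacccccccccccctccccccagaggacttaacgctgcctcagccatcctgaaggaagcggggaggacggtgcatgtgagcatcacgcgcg
Idh1 downstream start: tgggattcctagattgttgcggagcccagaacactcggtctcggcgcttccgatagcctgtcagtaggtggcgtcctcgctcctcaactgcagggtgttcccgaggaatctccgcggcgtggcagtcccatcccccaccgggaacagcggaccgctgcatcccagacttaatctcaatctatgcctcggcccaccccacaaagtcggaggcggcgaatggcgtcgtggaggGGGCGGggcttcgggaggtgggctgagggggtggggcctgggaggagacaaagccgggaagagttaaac

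The Idh2 window holds a CCAAT box whose first letter lies at position -44 from the start, followed by GC boxes at -38 and -18. The upstream Idh1 window has GC boxes at -171 and -107 and a CCAAT box at -151, and the downstream window has a GC box at -19. All 3 windows are rich in G and C (68.3%, 62.0% and 63.7%, against a median of 52.7% over 32851 windows). GC boxes occurred in 35.7% of all windows and CCAAT boxes in 37.4%. The half-site that nuclear receptors, thyroid hormone receptors among them, recognise (AGGTCA, either strand) occurred in 16.3% of all windows and in none of these 3. As a direct repeat spaced by 4 bases it occurred in 5 windows of the whole table. Of the 10 enzymes, 7 matched the promoter table with 9 windows, and the single half-site among them lay in the Aldh1l1 window, at -178. Nnt, Me2 and Nadk2 had no window, so their promoters were not searched. A match is a description of letters only.

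Idh2 read 374, 257 and 249.8 CPM in WT replicates 1 to 3. The TRa_mKO replicates stood at 695, 964 and 1035 CPM. The lowest TRa_mKO library thus lay well above the highest WT library, and WT replicate 1 was the highest of its group. The group means were 294 ± 69.9 and 898 ± 179 CPM (SD, n = 3 each), or 1.61 on the log2 scale (SE 0.20, adjusted p = 0.00292 by edgeR), with a 95% confidence interval of 1.17 to 2.06. Idh2 is an abundant transcript, higher in mean CPM than 98.7% of the genes tested, with 3312 to 14962 counts per library. By size of increase it ranked 46 of 13118, and by p-value 77.

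Nnt (gene ID 18115), the transhydrogenase of the inner membrane, stood at 48.3, 38.9 and 36.2 CPM in WT replicates 1 to 3. The TRa_mKO values were 90.8, 103 and 98.9 CPM. Again no TRa_mKO library reached down to a WT level, and WT replicate 1 was the highest of its group. The mean went from 41.1 ± 6.33 to 97.5 ± 6.17 CPM, which is 2.37-fold (log2 fold change 1.25, SE 0.12, 95% confidence interval 0.99 to 1.50, adjusted p = 0.000446 by edgeR). Nnt ranked 20 of 13118 by p-value and 97 by size of increase. Some inbred mice, C57BL/6J among them, are known to carry an Nnt allele that lacks several exons. A gene-level count does not tell alleles apart, and the sources used here do not give the Nnt allele of either genotype. The Cre line is labelled B6.Cg, and the strain behind the floxed allele is not stated. A difference in Nnt allele between the genotypes was not tested.

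The neighbours of these genes on the chromosome were not called. Next to Nnt on chromosome 13, the nearest genes tested on either side were Fgf10, a growth factor gene near the detection limit (log2 fold change 0.56, SE 0.53, adjusted p = 0.638 by edgeR), and Paip1, a translation factor gene (0.04, SE 0.08, adjusted p = 0.854). Next to Idh2 on chromosome 7 they were Zfp710 (-0.27, SE 0.11, adjusted p = 0.23) and Sema4b (0.62, SE 0.21, adjusted p = 0.153). No other annotated gene overlaps Idh2, Nnt or Idh1 in the RefSeq table.

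The other mitochondrial enzymes of the list did not pass. Me3, the NADP-dependent malic enzyme of mitochondria, read 62.6 to 69.3 CPM in WT and 63.9 to 77.4 CPM in TRa_mKO, with a log2 fold change of 0.10 (95% confidence interval -0.11 to 0.31, adjusted p = 0.655 by edgeR). Some of its counts were fractional, and the source of the fractions is not stated. Me2, the malic enzyme that mainly uses NAD, lay at 6.89 to 8.98 and 5.64 to 7.26 CPM (log2 fold change -0.32, 95% confidence interval -0.69 to 0.04, adjusted p = 0.331). Nadk2, the mitochondrial kinase that turns NAD into NADP, lay at 44.0 to 56.9 and 53.5 to 62.8 CPM (log2 fold change 0.24, 95% confidence interval -0.00 to 0.49, adjusted p = 0.282). In each of these 3 genes the groups overlapped.

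Mthfd2, a folate dehydrogenase of mitochondria that is scarce in most adult tissues, went the other way from Idh2 and Nnt. WT replicates 1 to 3 read 4.04, 4.96 and 4.88 CPM, and the TRa_mKO replicates 2.56, 3.15 and 3.11 CPM. The groups did not overlap, yet the change missed the threshold (log2 -0.65, SE 0.19, adjusted p = 0.0914 by edgeR), with a 95% confidence interval of -1.07 to -0.23. These levels rest on only 35 to 74 counts per library.

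Among the cytosolic enzymes, Idh1 was nearly constant in WT, at 44.0, 43.4 and 43.5 CPM in replicates 1 to 3. The TRa_mKO libraries held 26.6, 33.7 and 31.2 CPM, each below all of WT. The means were 43.6 ± 0.337 and 30.5 ± 3.59 CPM, or -0.52 on the log2 scale (SE 0.10, adjusted p = 0.016 by edgeR), with a 95% confidence interval of -0.73 to -0.30. The Idh1 call ended when WT replicate 3 was left out (adjusted p = 0.0527, log2 fold change -0.52). It also ended when both haemoglobin-rich libraries were (adjusted p = 0.0938, log2 fold change -0.53).

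The oxidative pentose phosphate enzymes did not pass. G6pdx, which controls entry into the pathway, read 8.68, 7.59 and 9.51 CPM in the WT mice, against 5.64, 7.26 and 6.23 CPM under TRa_mKO. Those groups did not overlap, although WT replicate 2 and TRa_mKO replicate 2 nearly met (log2 fold change -0.44, 95% confidence interval -0.78 to -0.09, adjusted p = 0.168 by edgeR). The gene overlaps Ikbkg, a signalling gene that was also tested, and whether the counting used strand is not given. Pgd, phosphogluconate dehydrogenase, lay at 23.1 to 27.3 CPM in WT and 22.3 to 26.1 CPM in TRa_mKO (log2 fold change -0.09, 95% confidence interval -0.32 to 0.14, adjusted p = 0.709).

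Aldh1l1, the cytosolic formyltetrahydrofolate dehydrogenase, varied more within the genotypes than between them. WT replicates 1 to 3 read 13.8, 10.7 and 18.9 CPM, and the TRa_mKO replicates 11.1, 19.0 and 15.7 CPM (log2 fold change 0.07, 95% confidence interval -0.50 to 0.63, adjusted p = 0.928 by edgeR). Its 2 highest libraries, WT replicate 3 and TRa_mKO replicate 2, were also the 2 highest in the summed adipocyte markers (44.3 and 56.8 CPM). TRa_mKO replicate 3, the next highest in Aldh1l1, was the lowest of all libraries in that sum (25.2 CPM). The 6 adipocyte markers summed to 37.9 to 44.3 CPM in WT and 25.2 to 56.8 CPM in TRa_mKO, with none at 0 in all libraries. None of the 5 tested was called, and Lep did not pass the filter on low counts. Most of each sum was Cfd (24.7 to 29.2 CPM in WT and 18.5 to 37.9 CPM in TRa_mKO). The part of the adipocyte markers in the Aldh1l1 values was not tested.

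**Figure D2:**
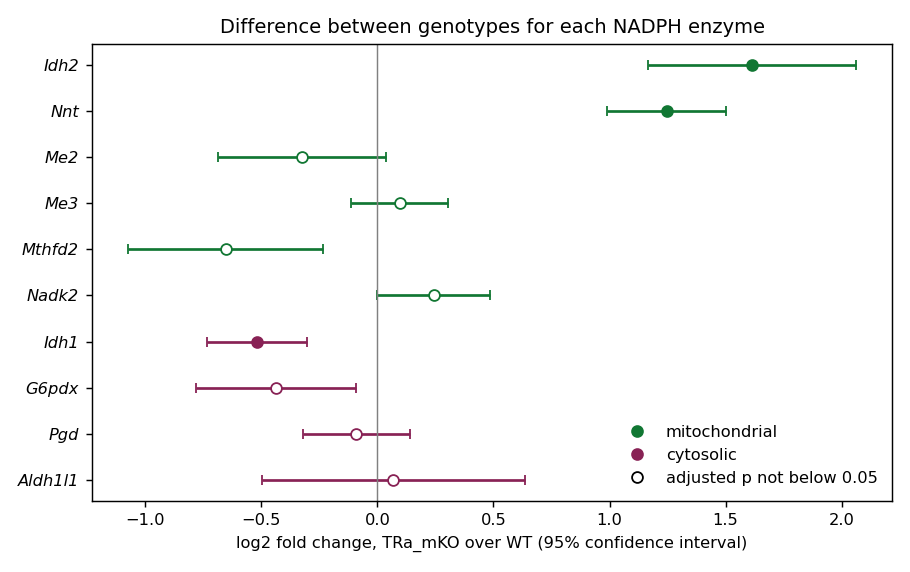
Log2 fold change of each enzyme, TRa_mKO over WT, with its 95% confidence interval; mitochondrial enzymes are green, cytosolic ones purple, and open symbols did not pass the adjusted p of 0.05. The filled points are Idh2 (1.61), Nnt (1.25) and Idh1 (-0.52), and the intervals of Me2, Me3, Nadk2, Pgd and Aldh1l1 include 0.

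Counting groups that did not overlap, 2 of the 10 enzymes were higher in every TRa_mKO library (Idh2 and Nnt) and 3 lower (Idh1, G6pdx and Mthfd2). Over all genes tested, 13.2% were apart upward and 10.1% downward. The median log2 fold change was 0.17 over the 6 mitochondrial enzymes and -0.26 over the 4 cytosolic ones, beside 0.00 over all genes tested. Of the 6 mitochondrial enzymes, 2 were called and 4 did not pass.

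Levels of different genes were compared per kilobase of each gene's longest GENCODE transcript. On that scale Idh2 was the highest of the 10 enzymes in every library, at 168 ± 40.1 CPM per kb in WT and 515 ± 103 in TRa_mKO. In WT, Idh1 came next (19.0 ± 0.146), followed by Me3 (14.7 ± 0.749), Nadk2 (13.4 ± 1.75), Nnt (11.9 ± 1.83) and Pgd (11.4 ± 0.969). Idh1 lay above Me3 in every WT library, while the libraries of Me3, Nadk2, Nnt and Pgd overlapped from each gene to the next. Aldh1l1, G6pdx, Me2 and Mthfd2 closed the order at 3.47 ± 0.998, 3.24 ± 0.362, 3.00 ± 0.396 and 2.22 ± 0.244 CPM per kb. Of these 4, the first 3 overlapped and Mthfd2 lay below them in every WT library. In TRa_mKO, Nnt took the place behind Idh2 (28.2 ± 1.78 CPM per kb) and Idh1 lay at 13.2 ± 1.56.

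The mitochondrial enzymes together summed to 261, 190.5 and 189 CPM per kb in WT replicates 1 to 3 and to 459.5, 617 and 658 in TRa_mKO. The cytosolic enzymes summed to 36.1, 35.8 and 39.3 in WT and to 26.4, 33.7 and 30.0 in TRa_mKO. The ratio of the mitochondrial to the cytosolic sum was 5.78 ± 1.28 in WT and 19.2 ± 2.40 in TRa_mKO (SD, n = 3), with no overlap. Most of this ratio is Idh2, which made up 78.4 ± 3.37% of the mitochondrial sum in WT and 88.8 ± 1.85% in TRa_mKO. Without Idh2 the ratio was 1.22 ± 0.0626 and 2.13 ± 0.201. Without Idh2 and Nnt the mitochondrial sums overlapped, at 32.2 to 35.1 in WT and 34.9 to 36.1 CPM per kb in TRa_mKO. No test is given for these sums, because the list was chosen with the differences in view.

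**Figure D3:**
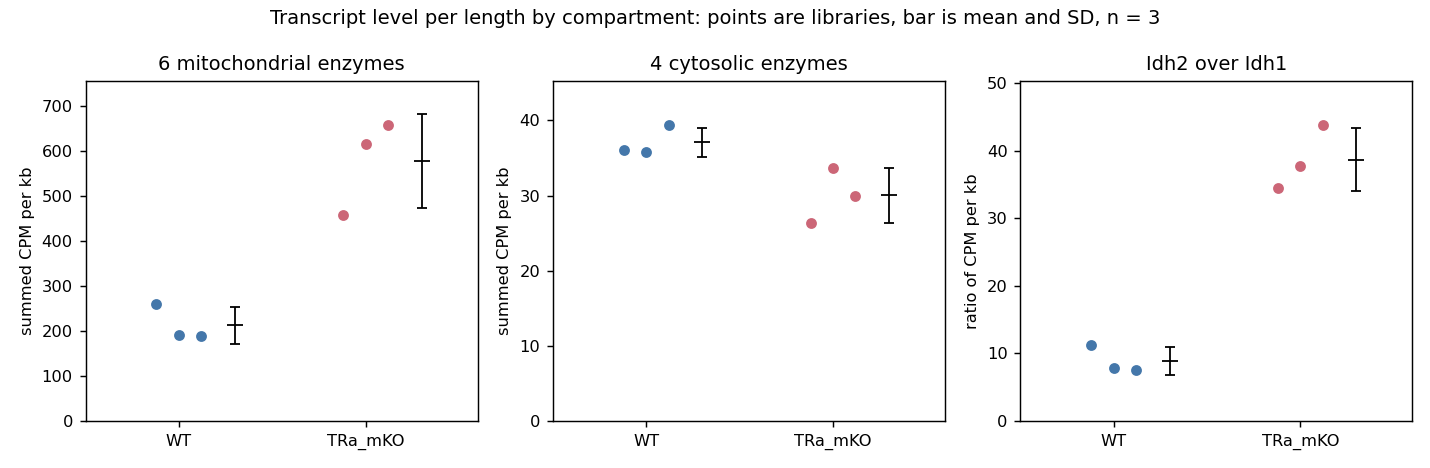
Summed level of the 6 mitochondrial and the 4 cytosolic enzymes, and the ratio of Idh2 to Idh1, in each library (CPM per kb, linear axes from 0; bar, mean and SD, n = 3). The mitochondrial sum and the ratio are higher in all 3 TRa_mKO libraries, and the cytosolic sum is lower.

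The ratio of Idh2 to Idh1 transcript per length was 11.2, 7.80 and 7.57 in WT replicates 1 to 3 and 34.5, 37.8 and 43.8 in TRa_mKO. Mitochondria also hold the NAD-dependent isocitrate dehydrogenase of the citric acid cycle, built from Idh3a, Idh3b and Idh3g. Its catalytic subunit gene Idh3a read 704 ± 50.9 CPM in WT and 632 ± 65.5 CPM in TRa_mKO and did not pass (log2 fold change -0.16, adjusted p = 0.538 by edgeR). Idh3b and Idh3g had log2 fold changes of 0.07 and -0.01 (adjusted p = 0.804 and 0.968). Per length, Idh2 stood below Idh3a in every WT library (ratio 0.617 ± 0.138) and above it in every TRa_mKO library (2.14 ± 0.612).

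The major cytosolic malic enzyme gene, Me1, is not on the list of 10 but is, per length, more abundant than any of its cytosolic members (97.6 ± 19.5 CPM per kb in WT). It read 321 ± 64.2 CPM in WT and 299 ± 37.0 CPM in TRa_mKO (log2 fold change -0.10, SE 0.16, adjusted p = 0.792 by edgeR). With Me1 added, the cytosolic sum overlapped between the genotypes (112 to 153 and 109 to 127 CPM per kb). The ratio of the mitochondrial sum to it was 1.64 ± 0.597 in WT and 4.85 ± 1.22 in TRa_mKO, still without overlap.

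Of 8 further listed enzymes, 0 passed in edgeR, and the median log2 fold change was 0.19. They make NADPH or NADP, except Mthfd1l, which acts in the same folate pathway without making either. Aldh1l2, the mitochondrial counterpart of Aldh1l1, came nearest, with 11.5 ± 1.94 CPM in WT and 17.5 ± 2.09 CPM in TRa_mKO and no overlap (log2 fold change 0.60, SE 0.15, adjusted p = 0.0533). It passed with DESeq2 (adjusted p = 0.0297), without a filter on low counts (0.0316) and with the replicate number as a block (0.0473). Mthfd2l, which catalyses the same reaction as Mthfd2, had a log2 fold change of 0.34 (adjusted p = 0.299), Mthfd1l of 0.54 (adjusted p = 0.408) and the cytosolic Mthfd1 of 0.20 (adjusted p = 0.32). Nadk, the cytosolic NAD kinase, read 48.3 ± 4.56 and 48.7 ± 3.90 CPM (adjusted p = 0.976 by edgeR). Among these 8 genes only Aldh1l2 had an unadjusted p under 0.05, and limma-voom called 0.

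In folate metabolism around Mthfd2 and Aldh1l1, 1 of 12 listed genes rose and 0 fell, where 4.17% of all genes tested were called. The riser was Shmt1, the cytosolic serine hydroxymethyltransferase, at 9.85 ± 0.416 CPM in WT and 15.9 ± 1.50 in TRa_mKO (0.69 on the log2 scale, SE 0.12, adjusted p = 0.0105 by edgeR). It did not pass without TRa_mKO replicate 2 (adjusted p = 0.0638) or without the haemoglobin-rich libraries (adjusted p = 0.0775). Of the 6 other pentose phosphate genes none passed in edgeR. The smallest p among them went to the transketolase gene Tkt (log2 fold change -0.30, adjusted p = 0.32), the transaldolase gene Taldo1 (0.18, adjusted p = 0.351) and Rpe (-0.15, adjusted p = 0.428, some counts fractional).

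Of 12 genes around isocitrate and oxoglutarate, 0 passed in edgeR, with log2 fold changes between -0.16 and 0.17. Glud1, glutamate dehydrogenase, had 0.17 (adjusted p = 0.372), Ogdh, of the oxoglutarate dehydrogenase complex, 0.17 (adjusted p = 0.41, some counts fractional) and Aco1, the cytosolic aconitase, 0.16 (adjusted p = 0.435). Idh2, at 1.61, lay outside the range of these 12 genes, but nothing is read from that, since Idh2 was listed because it already stood out.

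Of 19 antioxidant genes, 1 fell and 0 rose, where 4.17% of all genes tested were called. Only some of the 19, such as Gsr, Txnrd1 and Txnrd2, use NADPH directly. Txnrd1, the cytosolic thioredoxin reductase, fell from a mean of 92.4 ± 8.06 CPM in WT to 66.2 ± 6.64 (-0.48 on the log2 scale, SE 0.10, adjusted p = 0.0317 by edgeR). Its call ended without WT replicate 2 or 3, TRa_mKO replicate 2 or 3, or the haemoglobin-rich libraries (adjusted p = 0.0745 to 0.117), and with the replicate block (0.0921). Of 11 genes of fatty acid and sterol synthesis, 0 passed in edgeR, and their median was -0.18. Among them were the squalene epoxidase gene Sqle (log2 fold change -0.88, adjusted p = 0.108) and Acacb, the mitochondria-bound acetyl-CoA carboxylase (0.20, adjusted p = 0.296). Without WT replicate 2, Sqle passed (adjusted p = 0.0229), as did the fatty acid elongase gene Elovl6 (0.023), both downward.

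**Figure D4:**
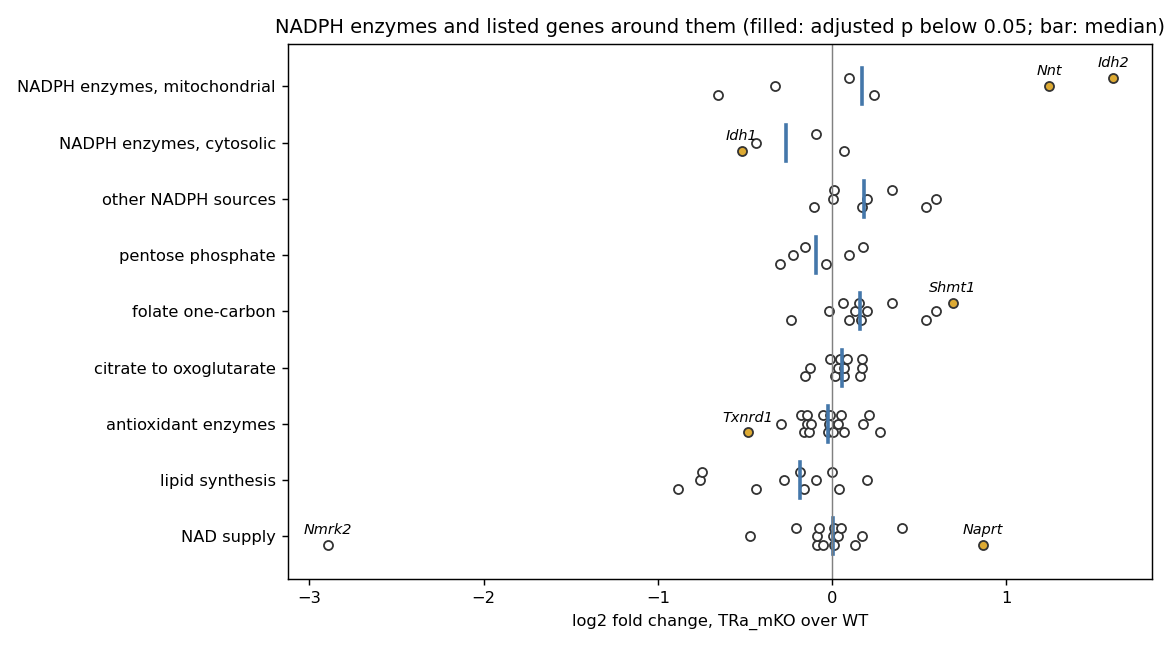
Log2 fold change, TRa_mKO over WT, of the NADPH enzymes and of 7 lists of genes around them, 1 point per gene, with filled points for adjusted p below 0.05 and a bar at each list's median; a gene on 2 lists is drawn in each. Most points lie near 0, Idh2 (1.61) and Nnt (1.25) lie farthest to the right, and Nmrk2 (-2.89), which did not pass, lies farthest to the left.

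Markers of slow fibres, which are rich in mitochondria, were also higher in the libraries labelled TRa_mKO. The 6 slow-fibre markers summed to 789 to 1962 CPM in WT and 3675 to 5427 CPM in TRa_mKO, with no overlap, none at 0 and 2 of 6 called higher (Myl2 and Myl3, slow myosin light chain genes). WT replicate 1, the highest WT library in Idh2 and Nnt, was also the highest in this sum, and TRa_mKO replicate 3 was the highest in the sum and in Idh2. Nnt was instead highest in TRa_mKO replicate 2, where the sum was 3905 CPM. Without WT replicate 1, Idh2 had a log2 fold change of 1.82 and Nnt of 1.37 (adjusted p = 0.00145 and 0.000321 by edgeR). The part of fibre type in the Idh2 and Nnt values was not tested. The summed level of the 6 fast-fibre markers overlapped, at 51307 to 74468 CPM in WT and 60985 to 69691 CPM in TRa_mKO. None of the 6 was called, although Actn3 and Mylpf were each higher in every TRa_mKO library than in any WT library (adjusted p = 0.309 and 0.202 by edgeR).

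Of the other cell types, the summed level of the 4 satellite cell markers was apart (45.4 to 58.6 CPM in WT and 63.9 to 70.7 CPM in TRa_mKO). Of the 4, Pax7 was called higher, and Chodl, which makes up most of the sum, overlapped (29.4 to 43.1 CPM in WT and 38.6 to 45.8 CPM in TRa_mKO). The summed markers of macrophages, endothelium, fibroblasts, erythrocytes and Schwann cells overlapped between the genotypes, with 0 markers called and none at 0 in all libraries. The endothelial sum was 807 to 980 CPM in WT and 587, 660 and 817 CPM in TRa_mKO replicates 1 to 3. Of its markers, Pecam1 was lower in every TRa_mKO library (adjusted p = 0.203 by edgeR), while Cdh5, Kdr, Tek and Cldn5 overlapped. Macrophages, which are known for an active pentose phosphate pathway, summed to 39.0 to 54.0 CPM in WT and 35.6 to 51.2 CPM in TRa_mKO.

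**Figure D5:**
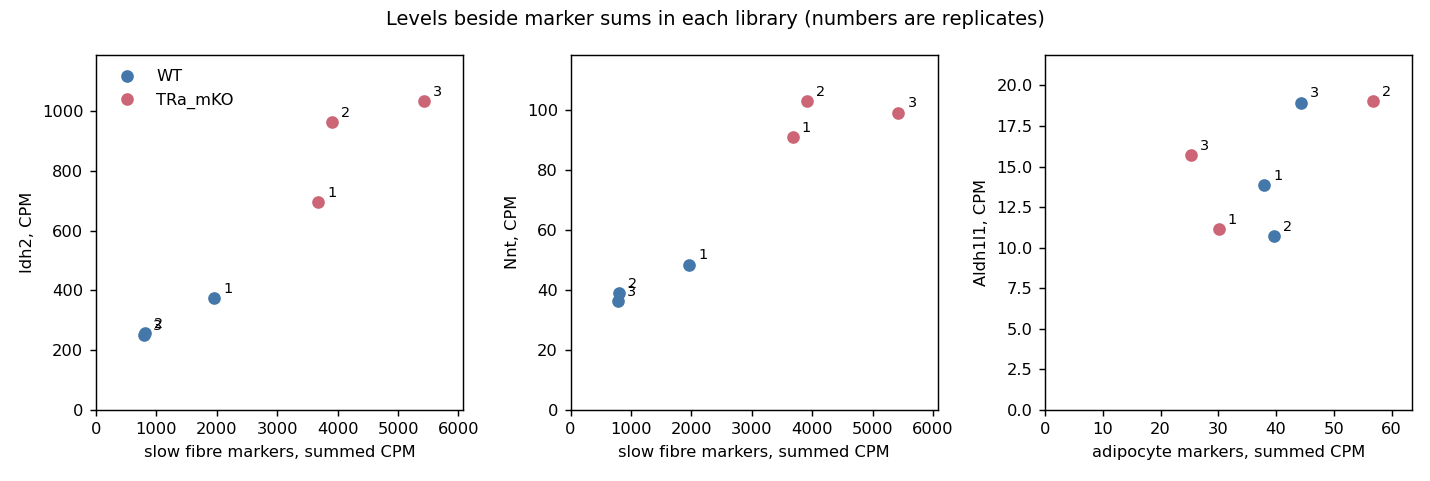
Idh2 and Nnt against the summed slow-fibre markers, and Aldh1l1 against the summed adipocyte markers, in CPM per library on linear axes from 0 (blue, WT; red, TRa_mKO; numbers are replicates). For Idh2 and Nnt the genotypes form separate clusters on both axes, whereas for Aldh1l1 they are mixed.

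Genes whose log2 CPM followed Idh2 and Nnt most closely were sought by Pearson's r among 11954 genes averaging 1 or more in log2 CPM, over the 6 libraries. The separation of the genotypes sets most of such an r, and libraries share depth and composition. Among the 5 nearest to Idh2 were Ift81 (r = 0.9951), Ppp2r3d, Sln, which encodes the calcium pump inhibitor sarcolipin (r = 0.9926), and Vgll2. Among the 5 nearest to Nnt were Cpt1b, the gate of fatty acid import into mitochondria (r = 0.9976), Klf12, Obsl1 and Tceal1 (r = 0.9913). Cpt1b read 357, 318 and 288 CPM in WT replicates 1 to 3, against 512, 561 and 538 CPM in the TRa_mKO replicates. That is the same order of libraries as Nnt in both genotypes. Cpt1b was picked for its high r with Nnt over these same libraries, so nothing is read from the order.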

How the data were processed

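RNA of 6 gastrocnemius muscles (3 WT, 3 TRa_mKO, 1 library each) was analysed. The authors deposited expected counts per gene without normalization; per the file headers they are read counts, and 9.6% to 10.0% of a library's values were not whole. Per the submitters' processing notes, FastQC 0.11.9, MultiQC 1.12, Trimmomatic 0.39 and featureCounts were used; the sources used here name no aligner or strand setting and do not say which build the counts rest on. Counts were rounded, filtered with filterByExpr (minimum count 10), scaled by TMM and tested with edgeR 4.0.16 (glmQLFit, robust, and glmQLFTest, two-sided, genotype only) in R 4.3.3, with Benjamini-Hochberg adjustment over 13118 genes. The step was tested on simulated counts drawn from the fitted model, which cannot show how well that model suits these libraries. The common biological coefficient of variation was 11.8%. Values are CPM as mean ± SD; p-values measure the spread between 3 mice per genotype. Lengths came from GENCODE (89 of 89 listed genes) and promoters from RefSeq.

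The 10 genes and the lists were chosen with earlier results of these data known. The rule for named genes took the 10 enzymes, each list's called genes or otherwise up to 3 with the smallest p, counterparts in the same reactions, the 5 genes most correlated with Idh2 and with Nnt, and their neighbours. Some genes that the rule takes are not reported here. Elovl6, Nampt and Nmrk2 were named after their values were seen. Alternatives were limma-voom (limma 3.58.1), DESeq2 1.42.0 or its size factors in edgeR, scaling by library size only, a minimum of 1 CPM in 3 libraries or no filter at all, the replicate number as a block, unrounded counts, the 10 most abundant genes left out, and each library left out. A fit without WT replicate 1 and TRa_mKO replicate 3, the libraries richest in haemoglobin, was added after seeing the data.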

Additional observations from a re-analysis of the deposited data

How the results depend on the processing

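Idh2 and Nnt passed under all 16 alternatives, with log2 fold changes of 1.50 to 1.82 and 1.16 to 1.37 and largest adjusted p of 0.0192 and 0.00423. Idh1 passed under 14 of 16. The count of enzymes called higher was 2 in each of the 16, and the count called lower ranged from 0 to 1 with 1 library left out (0 without WT replicate 3) and was 0 without the haemoglobin-rich libraries. The count of all genes called was 547, and 209 to 595 with 1 library left out: 361 for WT replicate 2, 310 for WT replicate 3 and 209 for TRa_mKO replicate 2. It was 267 when both haemoglobin-rich libraries were left out. Deviations of same-numbered libraries from their genotype means correlated with r = -0.176, 0 and -0.006. Libraries with different numbers gave r from -0.172 to 0.195. With 3 libraries per genotype, these values cannot show whether the numbers pair anything. With the replicate block 357 genes were called, Idh2, Nnt, Idh1 and Shmt1 passed, and Txnrd1 and Naprt did not. The 6 listed genes called kept their direction in all 96 of their fits under alternatives, while the sign of values that did not pass changed in 92 of all 1423 fits, over 36 genes. Mthfd2, Me2 and G6pdx rest on 35 to 144 counts per library; the part of counting error in their results was not tested.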

Other observations

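NADP is made from NAD. Of 16 listed genes that make, carry or use NAD or its precursors, 1 rose and 0 fell in edgeR's quasi-likelihood test. That test called 4.17% of all genes tested. Sirt1, Sirt3, Sirt5, Cd38 and Parp1, which use NAD, are among the 16. The riser was Naprt, which makes NAD from nicotinic acid, with a mean of 5.52 ± 0.221 CPM in WT and of 10.1 ± 2.75 CPM under TRa_mKO (SD, n = 3; log2 fold change 0.86, SE 0.20, adjusted p = 0.0414). That call held under 7 of 16 alternatives, with adjusted p from 0.00876 to 0.182. It ended on leaving out each single library except TRa_mKO replicate 1, on leaving out both haemoglobin-rich libraries, with library size only, with the replicate block (adjusted p = 0.0669) and with limma-voom.

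Nmrk2, the muscle kinase that feeds nicotinamide riboside into NAD, had the largest fold change on that list. It stood at 335, 358 and 168 CPM in WT replicates 1 to 3 and at 78.5, 15.7 and 21.3 CPM in TRa_mKO, with no overlap. The log2 fold change of -2.89 had an SE of 0.76 and did not pass in edgeR (adjusted p = 0.138). It passed with DESeq2 (adjusted p = 0.00538), with limma-voom (0.014) and without TRa_mKO replicate 1 (0.0116), all downward. Nampt, the main enzyme of NAD salvage, read 332, 304 and 350.5 CPM in WT replicates 1 to 3, against 317, 193 and 202 CPM in the TRa_mKO replicates (log2 fold change -0.47, SE 0.18, adjusted p = 0.208 by edgeR). In both genes TRa_mKO replicate 1 was the highest of its group, and without it Nampt also passed (adjusted p = 0.00793).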
